A study of Homo sapiens with 9 samples.

Results

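The calpains and their inhibitor calpastatin were followed in a U2-OS model of NCBP2 overexpression. The group held 9 genes of the 60609 gene identifiers counted: CAPN1, CAPN2, CAPN5, CAPN6, CAPN7, CAPN10, CAPN15, CAPNS1 and CAST. They were listed by symbol and matched by Ensembl identifier through GENCODE release 44. CAPN6 was chosen by its level, which had been seen lower in both NCBP2 clones, so its comparisons with vector are a description without a test. The other 8 genes were listed as its family, and their comparisons with vector were tested. All 9 genes passed the filter on low counts, as did 21682 genes in all.

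U2-OS is an established human osteosarcoma cell line, and all cells were grown in DMEM with 10% serum. Clone A1 and clone A4 overexpress NCBP2, which binds RNA caps as part of the nuclear cap-binding complex, and each gave 3 libraries (replicates A, B and C). The control group was 3 clones with an empty vector, each of which gave 1 library (also lettered A, B and C). Total RNA was depleted of ribosomal RNA per the labels' protocols, whereas the molecule field of the labels names polyA RNA. The labels do not say whether the libraries of 1 NCBP2 clone came from separate cultures. The p-values therefore measure the spread between these libraries, and the NCBP2 arm rests on 2 clones. That spread may be technical within an NCBP2 clone, whereas in vector it includes differences between clones. The fit shared 1 estimate of spread per gene across these unlike groups. A property of a clone and an effect of NCBP2 cannot be told apart within either clone.

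Counts in genes ranged from 29234022 to 50554080 per library, and the common biological coefficient of variation was 0.411. The targeted gene followed the labels. NCBP2 stood at 317.3 ± 27.1 CPM (counts scaled to a common library size, with TMM factors; SD, n = 3) in clone A1, 762.6 ± 291.0 in clone A4 and 95.8 ± 4.46 in vector. Its log2 fold change by edgeR was 1.73 (adjusted p = 0.0327) in clone A1 and 2.99 (adjusted p = 0.000417) in clone A4. Of 10 osteosarcoma and mesenchymal markers, 5 were over 10 CPM in every library (RUNX2, COL1A1, SPARC, VIM and FN1). IBSP had 0 counts, SP7 and BGLAP 1 count each, and COL1A2 reached 1.15 CPM at most. Libraries also differed by the GC content of genes: clone A1 replicate A was low in GC-rich genes, and clone A4 replicate C and vector replicate B were high in them.

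Calpains are cysteine proteases that respond to calcium and cut their substrates at a few sites rather than degrading them. The classical enzymes pair a large catalytic subunit, CAPN1 or CAPN2, with the small regulatory subunit CAPNS1, and calpastatin, the product of CAST, inhibits both. In adherent cells they are known for cutting talin, focal adhesion kinase and other proteins of adhesion sites during migration. The non-classical members do not use the small subunit: CAPN5 and CAPN6 lack the calcium-binding EF-hand domain, and CAPN6 also lacks the catalytic cysteine. CAPN6 is known from placenta and embryonic tissue as a protein that stabilises microtubules.

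CAPN6 was low in every NCBP2 library and higher, but uneven, in the vector clones. For clone A1 the levels of replicates A, B and C were 2.18, 2.42 and 0.917 CPM, from 62, 90 and 39 counts. In clone A4 it was 3.15, 3.87 and 2.22 CPM, from 150, 170 and 99 counts. The vector clones had 7.73, 29.4 and 11.5 CPM, from 357, 1507 and 471 counts. The highest NCBP2 library, clone A4 replicate B, lay under the lowest vector clone, replicate A, by a factor of 2.0. Counting error was smaller than that gap, with exact Poisson 95% intervals of 3.31 to 4.49 CPM and 6.95 to 8.58 CPM for these 2 libraries. Such intervals cover counting error only. CAPN6 was the only member of the 9 with all 6 NCBP2 libraries below all 3 vector libraries, an order that held for 2.26% of all genes tested. Because this order is what chose the gene, nothing is read from that count.

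**Figure D1:**
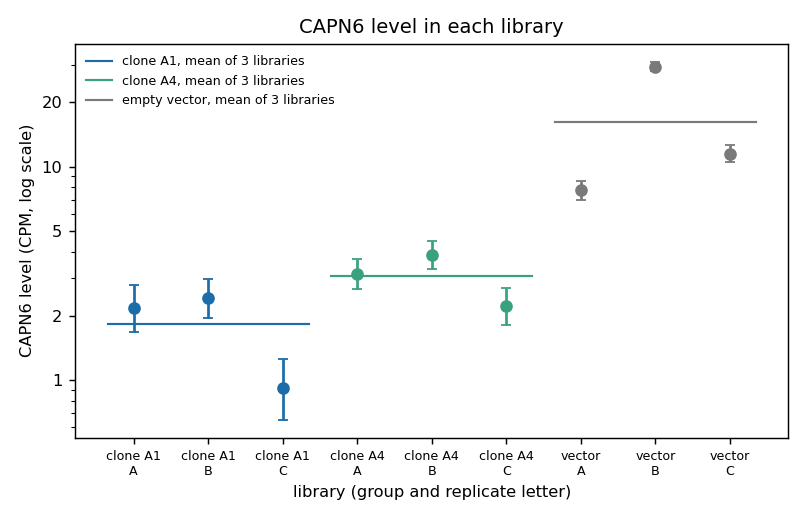
CAPN6 level in CPM (log axis) in each of the 9 libraries, with exact Poisson 95% intervals of the counts and a line at each group mean. The 6 NCBP2 libraries sit between 0.917 and 3.87 CPM and the 3 vector clones between 7.73 and 29.4 CPM.

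The group means of CAPN6 were 1.84 ± 0.808 CPM in clone A1, 3.08 ± 0.828 in clone A4 and 16.2 ± 11.6 in vector (SD, n = 3 each). On the log2 scale clone A1 lay at -3.15 from vector (SE 0.531, 95% interval -4.30 to -1.99), an 8.85-fold lower level. Clone A4 lay at -2.40 (SE 0.509, 95% interval -3.50 to -1.29), a 5.27-fold lower level. Both values share the vector libraries and are not independent of each other. The SEs and intervals take no account of the choice of CAPN6 on this contrast, so they are not read as a test. Vector replicate B carried much of the size of both differences. Without it the vector mean was 9.61 CPM, and the log2 fold changes were -2.39 (5.23-fold) for clone A1 and -1.64 (3.12-fold) for clone A4. In bulk RNA, fewer cells with a transcript and less of it per cell cannot be told apart.

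The contrast between the NCBP2 clones did not enter the choice of CAPN6 and was tested. Clone A4 lay 0.75 above clone A1 in CAPN6 on the log2 scale (SE 0.504, 95% interval -0.35 to 1.84), with an adjusted p of 0.822 by edgeR's quasi-likelihood test with Benjamini-Hochberg adjustment. Clone A4 replicate C (2.22 CPM) fell within the range of clone A1, so the groups overlapped. Among the vector clones the highest CAPN6 level was 3.80 times the lowest. The SD of log2 CPM over these clones was 0.99, against a median of 0.39 over all genes tested, and 88.1% of genes had a smaller SD. Most other members also lay above that median, with an SD of 0.65 for CAPN1, 0.58 for CAPN15, 0.45 for CAPN7 and 0.42 for CAPNS1. CAPN5 and CAPN10 had 0.41 each, whereas CAST had 0.13 and CAPN2 0.02.

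Levels of other cell types' markers were low in all groups. The summed level of 4 epithelial markers (EPCAM, CDH1, KRT5 and KRT14) was 4.72 to 6.21 CPM in clone A1, 6.40 to 9.29 in clone A4 and 8.27 to 10.8 in vector. The list did not go one way. CDH1 was 2.73 CPM or more in vector and at most 2.09 in the NCBP2 libraries, and KRT5 was 1.31 or more against at most 1.05. EPCAM ran from 2.42 to 2.97 CPM in vector and reached 3.87 in clone A1 and 5.58 in clone A4, and KRT14 overlapped between the groups. The summed osteosarcoma and mesenchymal level was 4129 to 5291 CPM in clone A1, 5042 to 6060 in clone A4 and 5735 to 7050 in vector. Their part in the CAPN6 difference was not tested. Blood markers summed to at most 2.18 CPM and endothelial markers to at most 1.13 CPM. The muscle regulators MYOD1 and MYOG had 0 counts in all 9 libraries. DES, also on the muscle list, had 55 counts in all. It reached 0.546 CPM in vector and 0.168 in clone A4, and was at 0 in clone A1.

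CAPN6 (ENSG00000077274.9) lies on the minus strand of chrX:111245099-111270483 in GRCh38, and no other annotated gene overlaps it. Reads on the opposite strand numbered 0 to 13 per library, so its counts rest on 1 strand. Its promoter window is shown beside a window of CAPNS1, which had the highest mean level of the family per kilobase of merged exons. These windows were picked because they differ in base composition. Both come from RefSeq (GRCh38.p14) and run from 250 bases before the annotated start to 50 after it, 5′ to 3′ on the strand of the gene. Capitals mark GGGCGG or its reverse complement CCGCCC, the core of the GC box.
CAPN6, chrX:111270434-111270733, minus strand: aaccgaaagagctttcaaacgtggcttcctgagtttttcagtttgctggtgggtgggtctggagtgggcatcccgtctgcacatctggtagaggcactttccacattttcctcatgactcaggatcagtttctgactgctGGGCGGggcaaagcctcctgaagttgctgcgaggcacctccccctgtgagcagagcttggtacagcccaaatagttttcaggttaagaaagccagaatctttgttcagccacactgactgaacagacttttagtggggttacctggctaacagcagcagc
CAPNS1, chr19:36139816-36140115, plus strand: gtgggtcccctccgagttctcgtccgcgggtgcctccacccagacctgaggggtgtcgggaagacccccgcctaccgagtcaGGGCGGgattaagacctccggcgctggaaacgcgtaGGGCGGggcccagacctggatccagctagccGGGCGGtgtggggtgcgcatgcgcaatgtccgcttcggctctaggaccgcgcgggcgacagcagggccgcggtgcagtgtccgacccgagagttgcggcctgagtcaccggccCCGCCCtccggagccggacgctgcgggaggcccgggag
The CAPN6 window was 51.7% G and C and held 5 CpG dinucleotides and 1 match to the motif. The CAPNS1 window shown was 72.3% G and C and held 35 CpG dinucleotides and 4 matches. Another CAPNS1 window, not shown, was 61.7% G and C and held 13 CpG dinucleotides and 1 match. CAPN2, also a highly expressed member, had a window with 2 CpG dinucleotides and another with 45. A link between the windows and the levels was not tested. Of 35116 RefSeq promoter windows of the same length, 45.0% held the motif on either strand, the median number of CpG dinucleotides was 14, and 33.7% of windows had 5 or fewer. RefSeq windows were found for 8 of the 9 members, 16 windows in all, and CAPN5 was not matched. TATAAA occurred in 1 of them, a CAST window. A motif match describes the letters of a window and is not evidence of a bound factor.

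The levels of the 9 genes spanned a wide range when set per length. CAPNS1 had the highest mean over the 9 libraries, at 48.0 CPM per kilobase of merged exons, followed by CAPN2 (39.1), CAST (21.0) and CAPN7 (17.8). CAPN2 stood above CAPNS1 in clone A1 replicate A (31.96% against 23.94% of the sum over the 9 genes) and in vector replicate C (31.9% against 26.34%). Per kilobase of the longest transcript it also did so in clone A1 replicate C (33.17% against 32.92%). By merged exons a second tier held CAPN5 (4.40), CAPN1 (3.38) and CAPN6 (1.99), and the lowest were CAPN15 (1.08) and CAPN10 (0.538). The place of CAPN6 rests on the vector clones. Its mean lay below that of CAPN15 in clone A1 (0.521 against 1.08) and in clone A4 (0.871 against 1.15). Per kilobase of the longest transcript CAPN1 (8.22) stood above CAPN5 (6.18), so the order of these 2 depends on the length used. On this scale CAPN6 necessarily kept its difference between groups, because each CPM is divided by the same length. Its mean per kilobase of merged exons was 0.521 in clone A1, 0.871 in clone A4 and 4.59 in vector. As a share of the sum over the 9 genes it came to 0.485%, 0.501% and 0.181% for clone A1, listed by replicate letter. Clone A4 had 0.669%, 0.814% and 0.419%. In the vector clones the share was 1.66%, 5.48% and 2.59%. Per kilobase of the longest transcript these shares were smaller, at 0.0877% to 0.244% in clone A1, 0.205% to 0.392% in clone A4 and 0.817% to 2.72% in vector.

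**Figure D2:**
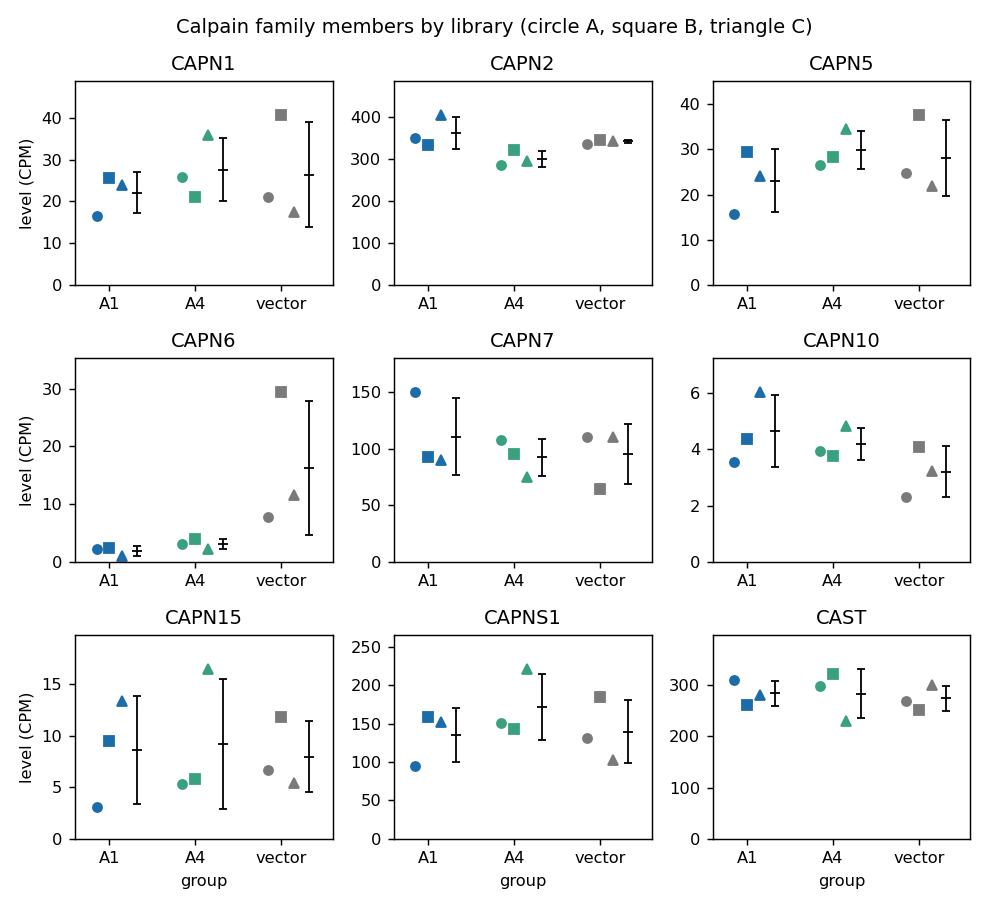
Level in CPM of each of the 9 genes by group, with replicates A (circle), B (square) and C (triangle) and the group mean with its SD to the right. CAPN6 is the gene whose NCBP2 libraries (at most 3.87 CPM) all lie under its vector clones (7.73 CPM or more), and the other 8 overlap vector except CAPN2 in clone A4.

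CAPN2, the catalytic subunit of m-calpain, was the dominant large subunit. Clone A1 had 349.7, 333.1 and 405.5 CPM, clone A4 had 286.0, 322.0 and 295.1, and vector had 337.2, 345.0 and 344.4. All 3 clone A4 libraries lay below every library of the other groups. The log2 fold change was -0.18 (95% interval -0.49 to 0.12) against vector and -0.27 (95% interval -0.57 to 0.03) against clone A1, with adjusted p-values of 1.0 and 0.782 by edgeR's quasi-likelihood test. The 3 clone A1 libraries overlapped vector, with a log2 fold change of 0.08 (95% interval -0.22 to 0.39).

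CAPN1, the catalytic subunit of µ-calpain, was the minor large subunit. Its CPM was 16.5, 25.7 and 24.1 (clone A1), 25.9, 21.0 and 35.9 (clone A4), and 21.1, 40.8 and 17.4 (vector). The vector clones alone spanned all other libraries but clone A1 replicate A, so the groups overlapped. Its log2 fold change was -0.26 (95% interval -0.96 to 0.45) in clone A1 and 0.06 (95% interval -0.64 to 0.77) in clone A4. Per kilobase of merged exons, CAPN2 exceeded CAPN1 by 7.19-fold to 18.5-fold over the 9 libraries, with a mean ratio of 12.6.

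CAPNS1, the small subunit that both large subunits bind, was at 94.6, 158.6 and 151.8 CPM in clone A1, 150.2, 143.3 and 220.8 for clone A4 and 131.8, 184.4 and 102.7 among vector clones. Clone A1 replicate A was the lowest library and clone A4 replicate C the highest, and the groups overlapped. The log2 fold change was -0.05 (95% interval -0.62 to 0.52) in clone A1 and 0.30 (95% interval -0.27 to 0.86) in clone A4. The ratio of summed CAPN1 and CAPN2 to CAPNS1, each per kilobase of merged exons, described the balance of large and small subunit transcripts. It was 1.09 ± 0.295 in clone A1, 0.727 ± 0.164 in clone A4 and 1.01 ± 0.258 in vector (SD, n = 3 each). Clone A4 ranged from 0.550 to 0.872 and vector from 0.767 to 1.28, so they overlapped. The highest ratio was in clone A1 replicate A (1.41), low in GC-rich genes, and the lowest in clone A4 replicate C, high in them. CAPNS1 is richer in GC (59.8%) than CAPN2 (44.7%), and the part of GC content in this ratio was not tested.

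CAST, the inhibitor of both classical enzymes, had a narrow range. Its level was 309.3, 261.8 and 279.9 CPM in clone A1, 298.6, 320.9 and 229.1 for clone A4 and 269.1, 251.8 and 300.7 among vector clones. No group stood apart, and the log2 fold change was 0.05 in both clones (95% intervals -0.31 to 0.41 in clone A1 and -0.31 to 0.40 in clone A4). The large subunits stood at 2.14 ± 0.277 times CAST in clone A1, 1.87 ± 0.359 in clone A4 and 2.13 ± 0.270 in vector per kilobase of merged exons. CAST overlaps ERAP1, an aminopeptidase gene on the opposite strand, which had 13804 counts in all against 106649 for CAST. Reads opposite to CAST were 3.24% to 7.45% of its stranded counts.

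CAPN5, a non-classical calpain with an intact protease core, was at 15.6, 29.4 and 24.2 CPM in clone A1, 26.5, 28.4 and 34.5 for clone A4 and 24.9, 37.7 and 21.9 among vector clones. It is the closest relative of CAPN6 in domain structure, and it did not share the separation between groups. The log2 fold change was -0.29 (95% interval -0.88 to 0.30) in clone A1 and 0.08 (95% interval -0.51 to 0.67) in clone A4.

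CAPN7, the relative of fungal PalB that binds the ESCRT-III membrane machinery, had 150.0, 92.4 and 89.6 CPM in clone A1, 107.2, 95.3 and 74.7 for clone A4 and 110.6, 64.6 and 110.5 among vector clones. Clone A1 replicate A was its highest library and vector replicate B its lowest, the reverse of CAPN1 and CAPN5 in those libraries. The log2 fold change was 0.22 (95% interval -0.34 to 0.78) in clone A1 and -0.04 (95% interval -0.60 to 0.52) in clone A4.

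CAPN10, a calpain that genetic studies have linked to diabetes risk, was low throughout. It stood at 3.55, 4.36 and 6.04 CPM in clone A1, 3.94, 3.78 and 4.84 for clone A4 and 2.30, 4.10 and 3.22 among vector clones. Its means were the highest in clone A1 and the lowest in vector, but vector replicate B lay inside the range of both NCBP2 clones. The log2 fold change was 0.54 (95% interval -0.20 to 1.27) in clone A1 and 0.38 (95% interval -0.35 to 1.12) in clone A4. CAPN15, the zinc-finger calpain related to the fly gene small optic lobes, had 3.06, 9.47 and 13.4 CPM in clone A1, 5.33, 5.85 and 16.5 for clone A4 and 6.72, 11.9 and 5.39 among vector clones. Each group held both low and high libraries of CAPN15, and the intervals were the widest of the tested members, at -1.07 to 1.30 in clone A1 and -0.98 to 1.39 in clone A4.

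None of the 8 tested members passed the threshold (adjusted p under 0.05, edgeR's quasi-likelihood test with Benjamini-Hochberg adjustment over all genes) in clone A1 against vector, where 0.0646% of all genes did. The count was likewise 0 of 8 in clone A4 against vector (0.115% of all genes) and 0 of 9 in clone A4 against clone A1 (0.161%). At an unadjusted p under 0.05 edgeR gave 0 members in each comparison, DESeq2 gave 0 in each, and limma voom gave 1, 0 and 1 in that order, with 0 past the adjusted threshold in both tools. With so small a share of genes called, a count of 0 is near the background. Groups did not overlap for 0 of 8 tested members in clone A1 against vector (14.2% of all genes), for 1 of 8 in clone A4 against vector (12.1%) and for 1 of 9 in clone A4 against clone A1 (13.6%). CAPN2 was that gene in both. The median log2 fold change of the tested members was 0.07 in clone A1, 0.07 in clone A4 and 0.09 between the clones, against -0.02, 0.03 and 0.04 over all genes tested.

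**Figure D3:**
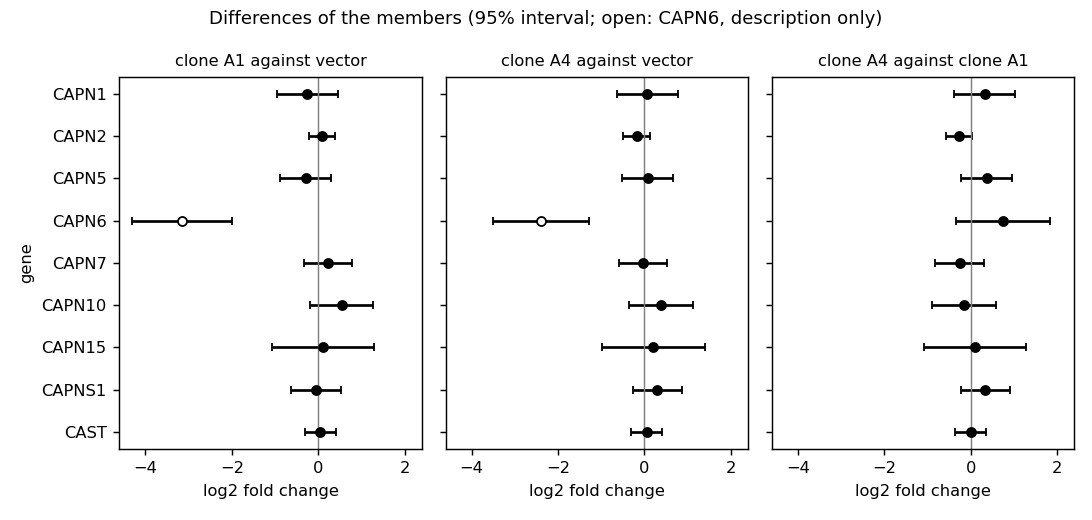
Log2 fold change with its 95% interval for the 9 genes in each of the 3 comparisons, with CAPN6 against vector as open symbols because it was chosen on that contrast. The intervals of all filled symbols include 0, and CAPN6 lies at -3.15 in clone A1 and -2.40 in clone A4.

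Several members varied from library to library with the GC content of their transcripts. Tested genes were split by transcript GC into 5 classes of near-equal size, and the GC contrast of a library was the median log2 deviation of the richest class minus that of the poorest. By replicate letter it was -1.24, 0.05 and 0.19 for clone A1. Clone A4 had -0.21, 0.04 and 0.77, and vector had -0.17, 0.96 and -0.42. CAPN15 (69.2% GC), CAPN1 (60.5%), CAPNS1 (59.8%) and CAPN5 (57.9%) belong to the richest class, and their log2 levels followed this contrast over the 9 libraries with Pearson r of 0.90, 0.91, 0.92 and 0.95. CAPN7 (39.5% GC, in the poorest class) ran the other way with r of -0.99, and CAST (42.1%) with r of -0.74. These correlations are descriptions over 9 libraries that share the same contrast, and most of these members are among the genes it was computed from. CAPN10, also in the richest class at 60.4%, had r of 0.42.

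CAPN6 (48.0% GC) and CAPN2 (44.7%) belong to the third of the 5 GC classes and had r of 0.26 and -0.13. Vector replicate B, the library with the highest CAPN6 level, was also the library with the highest GC contrast. With offsets fitted per GC class, an alternative chosen after seeing the data, the log2 fold change of CAPN6 was -3.06 in clone A1 and -2.36 in clone A4. The same offsets lowered the SE in clone A1 against vector from 0.258 to 0.135 for CAPN7, from 0.261 to 0.123 for CAPNS1 and from 0.324 to 0.180 for CAPN1, and from 0.531 to 0.494 for CAPN6. Under them CAPN10 in clone A1 was 0.80 (SE 0.298, adjusted p = 0.288 by edgeR) and CAPN2 in clone A4 against clone A1 was -0.30 (SE 0.117, adjusted p = 0.400 by edgeR).

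**Figure D4:**
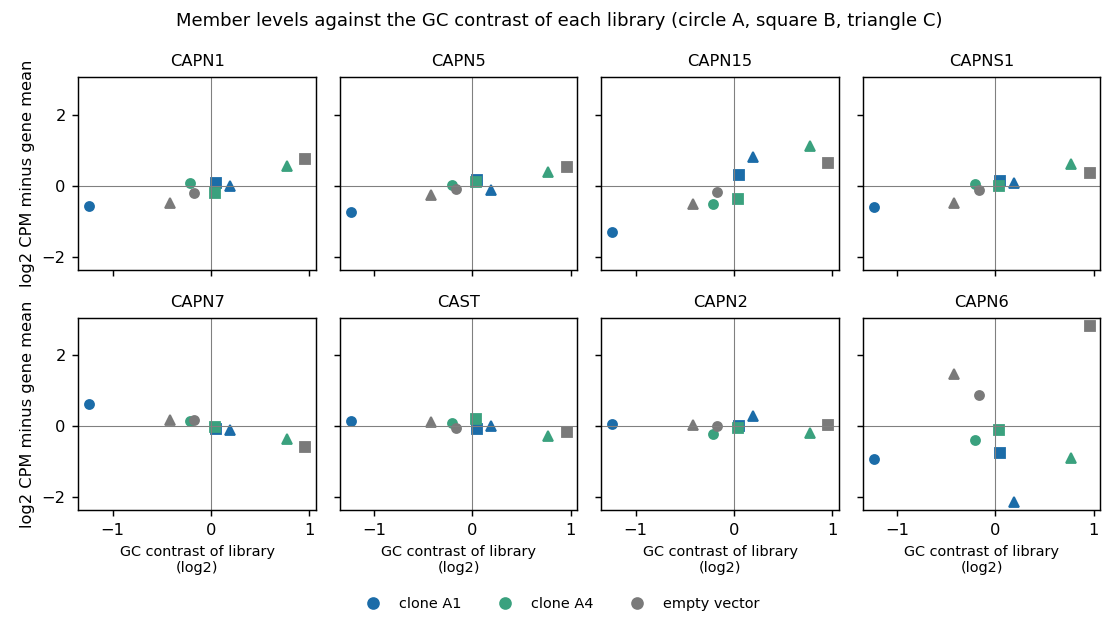
Log2 CPM of 8 members relative to the mean of the gene (vertical axis) against the GC contrast of the library in log2 units (horizontal axis), with CAPN10 not drawn. CAPN1, CAPN5, CAPN15 and CAPNS1 slope upward along the axis and CAPN7 downward, whereas the CAPN6 points have r of 0.26, with the vector clones at contrasts of -0.42, -0.17 and 0.96.

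The remaining calpains were close to absent. CAPN14 was the only one of 8 other calpain genes to pass the filter, with 4 to 25 counts per library and log2 fold changes of -0.06 in clone A1 and -0.81 in clone A4, neither of which passed the test. CAPN3, the muscle calpain, had 0 to 7 counts, and CAPN13 had 0 to 4. CAPN8 and CAPN9, known from the gastrointestinal tract, had 9 and 2 counts over all libraries, CAPN11 had 5, and the second small subunit CAPNS2 had 8. A count of 0 in the deepest library allows up to 3 counts, or 0.0593 CPM. CAPN12 had 1 to 8 counts on its own strand and 2283 to 5065 on the opposite one, where it overlaps ACTN4, the gene of an actin crosslinker with 90321 counts. Without strand information those reads could not be assigned to CAPN12 or ACTN4.

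Genes around the calpains were taken from 2 lists. Of 21 calpain substrates of adhesion, cytoskeleton and signalling (among them TLN1, PTK2, SPTAN1 and FLNA), all were tested and 0 passed edgeR's threshold in any comparison. At an unadjusted p under 0.05 there were 3, 1 and 1 in clone A1, clone A4 and between the clones, and the median log2 fold changes were -0.16, 0.08 and 0.05. DESeq2 called 0, and limma voom called 1 gene in clone A4, the intermediate filament gene VIM, which was named after its values were seen. VIM lay at -0.53 there (SE 0.137). Its adjusted p was 0.345 in edgeR's test and 0.0145 in limma voom. Of 14 genes of calcium supply and sensing, such as STIM1, ORAI1 and the calmodulin genes, 0 passed by edgeR, DESeq2 or limma voom in any comparison, with unadjusted counts of 1, 0 and 0 and medians of -0.07, -0.06 and -0.04. Over all genes the unadjusted shares were 7.51%, 5.25% and 6.63%.

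Genes beside CAPN6 on the X chromosome had values around 0 where they were well counted. The 20 nearest tested genes, 10 on either side, span from 2.81 Mb before to 4.27 Mb after it by start position, and 0 of them passed edgeR's threshold in any comparison. Their median log2 fold change was 0.10 in clone A1 and 0.06 in clone A4, with 7 and 8 of 20 below 0. Among the 9 neighbours with a mean over 10 CPM the values ran from -0.21 to 0.43 in clone A1 and from -0.23 to 0.18 in clone A4. Over all 20 they ran from -1.15 to 1.73 in clone A1 and from -1.87 to 3.31 in clone A4. CAPN6 itself averaged 7.04 CPM, under the cut of 10 CPM. PAK3, a Rac- and Cdc42-activated kinase gene and the nearest tested neighbour on the left, was at 12.4 to 18.5 CPM with log2 fold changes of 0.09 (SE 0.233) and 0.18 (SE 0.232). DCX, a microtubule-binding protein gene and the nearest on the right, averaged 0.351 CPM, with log2 fold changes of 0.48 in clone A1 and -1.87 (SE 1.34) in clone A4.

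**Figure D5:**
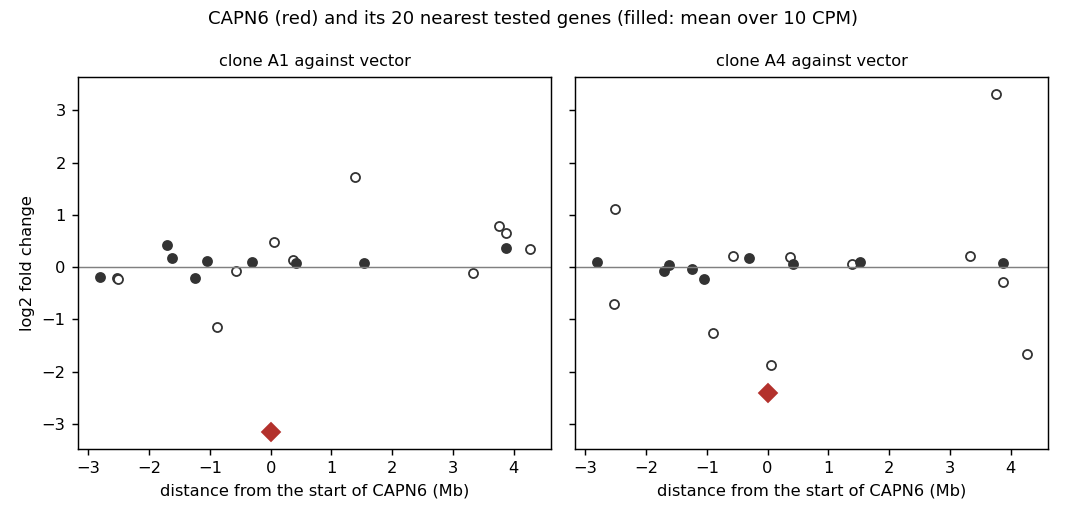
Log2 fold change against vector of CAPN6 (red diamond) and its 20 nearest tested genes by distance between start positions in Mb, filled where the mean over the 9 libraries is above 10 CPM. The filled neighbours lie between -0.23 and 0.43 in both panels, and CAPN6 lies at -3.15 and -2.40.

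Among 12246 ranked genes, the 5 whose log2 CPM was most like that of CAPN6 over the 9 libraries were TOX, FBXO32, MEF2C, PLCH1 and SDR42E1. TOX, a gene of an HMG-box nuclear protein, had Pearson r of 0.961 and means of 3.36 CPM in clone A1, 4.83 in clone A4 and 10.3 in vector. FBXO32, an F-box gene of a ubiquitin ligase, had r of 0.947 and means of 11.2, 12.4 and 22.3 CPM. MEF2C, a MADS-box transcription factor gene, had r of 0.930 and means of 3.46, 4.74 and 8.25 CPM. These 3, and also PLCH1 and SDR42E1, had lower means in both NCBP2 clones than in vector, as CAPN6 did, but with smaller ratios. Ranking by likeness to CAPN6 over the same libraries favours that order, so nothing is read from it. PLCH1, a phospholipase C gene, had r of 0.929 and SDR42E1, of the short-chain dehydrogenase family, 0.927. Without vector replicates B and C, the libraries farthest from the median, r ranged from 0.807 (SDR42E1) to 0.997 (MEF2C) over 7 libraries. The ranking over so many genes selects high values, and the libraries of 1 clone are not independent. No other member of the calpain group ran close to CAPN6, with r between -0.542 (CAPN10) and 0.326 (CAPN5).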

How the data were processed

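RNA sequencing of 9 U2-OS libraries was deposited by the authors as raw counts of reads per gene, with no normalization, in tables that open with 4 lines naming no gene (44.5% to 63.6% of a library's reads), which entered neither library sizes nor tests. The submitters' processing notes name STAR 2.7.1a and GRCh38; the annotation is not given in the sources used here. Counts of the gene's strand (column 3) were used. Columns 2 and 4 hold counts without regard to strand and of the opposite strand, as read from the values. Symbols and coordinates came from GENCODE release 44, which matched 60295 of 60609 identifiers, 49338 with the same version.

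Counts were tested with edgeR 4.0.16 (R 4.3.3; filterByExpr, TMM, robust quasi-likelihood, 1 fit of 3 groups) and Benjamini-Hochberg adjustment over 21682 genes, with a threshold of 0.05. CPM and log2 CPM (prior count 2) were computed here. The analysis was tested on simulated data. Alternatives used DESeq2 1.42.0, limma 3.58.1 and the settings named in the closing section. Total reads were 80341579 to 111784333 per library, and no pair within a group agreed within sampling noise (lowest chi-square per degree of freedom 26.9). Named were the members, NCBP2, list genes and neighbours past the threshold, the nearest tested neighbours and the 5 genes most like CAPN6 with a mean log2 CPM of at least 1. Members and lists were chosen with earlier results of these data known. One further gene list is not reported here.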

Additional observations from a re-analysis of the deposited data

How the results depend on the processing

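The 25 tested differences were recomputed under 17 alternatives each. No value of the 425 passed the adjusted threshold (lowest adjusted p 0.161, over edgeR, DESeq2 and limma voom). The sign turned for 49 values in 18 differences. All 25 differences, turned or not, had a 95% interval that included 0. Against vector CAPN6 kept its sign in all alternatives run. When a library was left out it lay between -3.50 and -2.39 for clone A1 and between -2.75 and -1.64 for clone A4. Otherwise it lay between -3.21 and -2.67 and between -2.46 and -1.74. Every NCBP2 library lay below every vector library in CAPN6, the order that chose the gene. Leaving out a library could therefore not turn the sign, and nothing is read from its being kept. With 3 libraries a group and these spreads, changes within the wide intervals of the low genes CAPN10 and CAPN15 were not detectable.

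The number of genes called moved with the tool. For clone A1, for clone A4 (each against vector) and between the clones it was 14, 25 and 35 by edgeR, 274, 185 and 246 by DESeq2, 312, 163 and 231 with no filter on low counts, 297, 233 and 149 by limma voom with library weights, and 117, 93 and 123 with the GC offsets, which were chosen after seeing the data. With only the 6 libraries compared it was 7 in clone A1. Leaving out 1 library gave 3 to 14, 7 to 41 and 10 to 56. The highest counts came without clone A1 replicate A in clone A4 against vector (41) and without vector replicate B between the clones (56). The cause was not tested.

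With the replicate block the counts were 38, 53 and 51, and CAPN15 in clone A1 turned to -0.14. Over the 9 same-letter pairs the correlation of deviations from the group means ran from -0.102 to 0.179, with 6 over 0.1. Between groups, pairs of different letters ran from -0.271 to 0.221. Whether the letters pair the samples was not settled by these values.

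Per kilobase of the longest transcript the mean levels were 8.22 for CAPN1, 81.2 for CAPN2, 6.18 for CAPN5, 22.9 for CAPN7, 0.911 for CAPN10, 1.76 for CAPN15, 95.4 for CAPNS1 and 62.2 for CAST, because the longest transcript is shorter than the merged exons. The ratio of large subunits to CAST was then 1.455 rather than 2.04.

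Under limma voom, signs turned in clone A1 against vector for CAPN1 (0.18), CAPN5 (0.05), CAPN7 (-0.14), CAPNS1 (0.25) and CAST (-0.02), and in clone A4 against clone A1 for CAPN7 (0.04), CAPN15 (-0.57) and CAST (0.07). With GC offsets they turned in clone A1 for CAPN1 (0.07) and CAPNS1 (0.23), in clone A4 for CAPN1 (-0.02) and CAPN5 (-0.01), and between the clones for CAPN1 (-0.09), CAPN15 (-0.29), CAPNS1 (-0.05) and CAST (0.05). CAST turned to -0.02 in clone A4 with counts without regard to strand, and to 0.01 between the clones with no filter.

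Signs that turned when 1 library was left out had these ranges. In clone A1 they were -0.50 to 0.20 for CAPN1, -0.01 to 0.13 for CAPN2, -0.06 to 0.34 for CAPN7, -0.35 to 0.52 for CAPN15, -0.24 to 0.21 for CAPNS1 and -0.01 to 0.11 for CAST. In clone A4 they were -0.19 to 0.51 for CAPN1, -0.09 to 0.35 for CAPN5, -0.26 to 0.08 for CAPN7, -0.54 to 0.59 for CAPN15 and -0.07 to 0.16 for CAST. Between the clones they were -0.39 to 0.02 for CAPN7, -0.31 to 0.08 for CAPN10, -0.65 to 0.56 for CAPN15 and -0.12 to 0.11 for CAST.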
